A study of Mus musculus with 9 samples.

Results

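The genes described here are 8 genes of mechanotransduction and the stomatin family, Piezo1, Piezo2, Stom, Stoml1, Stoml3, Tmem150c, Tmem120a and Tmem63b, out of 21536 genes in the table. They were chosen by name, and all 8 were found. The data are Dropseq profiles of single cells (STAMPs) from dissociated trigeminal ganglia, the ganglia that hold the cell bodies of somatosensory neurons of the face and mouth, of wild-type FVB/N mice labelled as 3 to 6 weeks of age. In 9 runs, cells pooled from male and female mice were separated on a Percoll gradient and depleted of glia before capture, and no mouse received a treatment. The cell barcodes do not name their run, so the 6997 barcodes count as a single sample, and groups of cells were compared by their values and counting intervals without a test. Values are transcripts counted once each by their unique molecular identifier (UMI), summed over a group of cells and given per 1000000 UMIs of that group (CPM), with exact Poisson 95% intervals. Shares of cells with at least 1 UMI carry exact binomial (Clopper-Pearson) 95% intervals, and all intervals cover counting error only.

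Piezo1 and Piezo2 are cation channels opened by membrane stretch or indentation. Piezo2 is the main channel of gentle touch and proprioception in sensory neurons, whereas Piezo1 is best known from blood vessels and red blood cells. Stomatins are membrane proteins that bind the inner leaflet and assemble into oligomers. Stom was named for its loss from red blood cells in a form of stomatocytosis and inhibits some acid-sensing channels. Stoml3 raises the sensitivity of Piezo channels to small forces, and Stoml1 joins a stomatin domain to a sterol carrier domain. Tmem150c (tentonin 3) and Tmem120a (TACAN) were each put forward as mechanosensory proteins, and whether either forms a channel by itself is disputed. Tmem63b belongs to the OSCA/TMEM63 family of stretch-activated channels. In RefSeq (GRCm38.p6) the genes lie on separate chromosomes, Piezo1 on 8, Piezo2 on 18, Stom on 2, Stoml1 on 9, Stoml3 on 3 and Tmem63b on 17, except for Tmem150c (chr5:100077872-100165607) and Tmem120a (chr5:135735490-135744172), which are far apart on chromosome 5.

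Barcodes with 500 to 7500 genes, at least 3 of the 6 neuronal transcripts Tubb3, Scn9a, Snap25, Nefl, Nefm and Uchl1 and no UMI of Epcam were taken as neurons, which left 3855 barcodes (55.1%) with a median of 3014 UMIs. Peripherin (Prph) was found in 92.7% of them and the sensory neuron gene Avil in 69.5%. Each neuron was then put into the first group whose rule it met. These were Trpm8 neurons (cooling, n = 244), Mrgprd neurons (n = 379), Mrgpra3 neurons (n = 49), Nppb neurons (n = 57), Cd34 neurons (C-fibre touch, n = 320), Nefh neurons with no Trpv1 (large myelinated, n = 450) and neurons with Calca and Trpv1 (peptidergic, n = 916). The other 1440 neurons met no rule, had a lower median depth of 1826 UMIs and are called other neurons. The medians of the 7 groups lay between 3406 and 5836 UMIs, and 349 neurons met more than 1 rule. A glial marker list took 0.878% of the UMIs of other neurons and between 0.0241% and 0.233% in the 7 groups.

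The sequences around the start sites of Stoml3 and Stom are shown because the 2 paralogues were found in the same Omp-positive barcodes described later. Each line gives 250 bases before to 50 bases after the start of the gene, 5′ to 3′ on the gene's strand (RefSeq, GRCm38.p6). Capitals mark the letters GGGCGGG, the GC box bound by Sp factors, on either strand. The Stoml3 stretch is chr3:53488457-53488756 on the plus strand and the Stom stretch chr2:35336960-35337259 on the minus strand.
Stoml3: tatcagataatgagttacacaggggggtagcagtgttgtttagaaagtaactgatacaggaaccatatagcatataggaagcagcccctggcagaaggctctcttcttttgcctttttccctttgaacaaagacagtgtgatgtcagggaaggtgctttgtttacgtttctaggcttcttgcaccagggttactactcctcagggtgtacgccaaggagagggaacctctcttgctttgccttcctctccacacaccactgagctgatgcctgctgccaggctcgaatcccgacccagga
Stom: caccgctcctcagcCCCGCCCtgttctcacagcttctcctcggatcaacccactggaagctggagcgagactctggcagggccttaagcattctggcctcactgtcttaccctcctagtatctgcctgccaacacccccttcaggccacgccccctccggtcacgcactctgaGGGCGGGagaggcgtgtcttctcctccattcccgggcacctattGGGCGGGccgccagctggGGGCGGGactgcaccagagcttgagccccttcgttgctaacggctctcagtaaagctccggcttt
Stom held 4 GC boxes in this window and Stoml3 none, and 25.8% of 27025 promoters of this length held at least 1. Of the letters CAGCTG (an E-box), Stom held 1 match and Stoml3 none, against 16.1% of promoters. Neither held TATAAA (14.2% of promoters) or CCCNNGGG, the core letters of a site of Ebf factors (13.4%), on either strand. G and C made up 63.3% of the Stom stretch and 49.3% of the Stoml3 stretch, and the median over all promoters was 52.7%. Promoter entries were found for 7 of the 8 members.

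Piezo2 differed widely between the 7 neuron groups, with most in Cd34 and least in Trpm8 neurons. Its level was 1454 CPM (1412 to 1497) in Cd34 neurons, 797 CPM (766 to 828) in Mrgprd neurons and 747 CPM (718 to 777) in Nefh neurons. Mrgpra3 neurons had 483 CPM (410 to 565) and Nppb neurons 236 CPM (183 to 300). The lowest levels were 123 CPM (114 to 134) in Calca/Trpv1 neurons and 17.0 CPM (11.9 to 23.5) in Trpm8 neurons. Every step of this order was larger than counting error. The step between Mrgprd and Nefh neurons was small (a log2 ratio of 0.09, 0.01 to 0.17). With the deepest 5% of neurons left out, the log2 ratios of these groups to Calca/Trpv1 neurons were 2.96 and 3.00, so their order turned.

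On the log2 scale, Piezo2 was higher than in Calca/Trpv1 neurons by 3.56 (3.44 to 3.68) in Cd34 neurons, by 2.69 (2.56 to 2.82) in Mrgprd neurons and by 2.60 (2.47 to 2.73) in Nefh neurons. In Trpm8 neurons the log2 ratio was -2.86 (-3.39 to -2.38), with -1.65 as a mean of single-cell CPM and -3.87 under stricter group limits. All such ratios share the Calca/Trpv1 neurons as their reference and are not independent of each other. A Piezo2 UMI was found in 94.1% (90.9 to 96.4) of Cd34 neurons, 94.2% (91.3 to 96.3) of Mrgprd neurons and 75.6% (71.3 to 79.5) of Nefh neurons. The share was 23.3% (20.6 to 26.1) in Calca/Trpv1 neurons and 5.33% (2.87 to 8.94) in Trpm8 neurons. Thinned to 1000 UMIs per cell, the shares were 72.1% in Cd34, 55.7% in Mrgprd, 46.5% in Nefh, 29.4% in Mrgpra3, 23.3% in Nppb, 8.69% in Calca/Trpv1 and 1.80% in Trpm8 neurons. Free RNA gives some barcodes a UMI of a gene that they do not express. Red blood cell-like barcodes (median 1289 UMIs, against 5671 in Trpm8 neurons) had Piezo2 in 3.60% before and 2.88% after thinning, and pituitary-like barcodes (median 2157 UMIs) in 1.19% and 0.587%. Per UMI these classes had 29.5 CPM (22.0 to 38.6) and 4.19 CPM (1.68 to 8.63). The Trpm8 neurons lay between them, so their Piezo2 was not separated from free RNA. A single Trpm8 neuron held 11 of the 36 Piezo2 UMIs of its group.

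Within some groups the rate of Piezo2 was uneven. If every neuron had expressed it at the mean rate of its group, a UMI would have been found in 93.5% of Mrgprd neurons at their depths, next to the 94.2% observed. In Nefh neurons this share would have been 89.3% against 75.6%, in Calca/Trpv1 neurons 41.0% against 23.3% and in Mrgpra3 neurons 80.7% against 65.3%. Cd34 neurons would have reached 98.5% against 94.1%, and Nppb neurons 56.9% against 52.6%, which lies inside the counting interval of the observed share (39.0 to 66.0). Trpm8 neurons would have reached 12.8% against 5.33% (2.87 to 8.94), with 11 of their 36 UMIs in 1 cell. No gap beyond counting error was seen in Mrgprd or Nppb neurons, and the interval of Nppb neurons is wide. The larger gaps in Calca/Trpv1 and Nefh neurons show that the rate of Piezo2 differed between neurons of a group, but a neuron with no UMI can still express it. In Nefh neurons 24.4% had no Piezo2 UMI and 18.2% had 10 or more, with a maximum of 65. Among Calca/Trpv1 neurons 76.7% had none and 1.09% had 10 or more. In Mrgprd neurons 5.80% had none, 12.4% had 1 and 21.9% had 10 or more, with a maximum of 49.

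**Figure D1:**
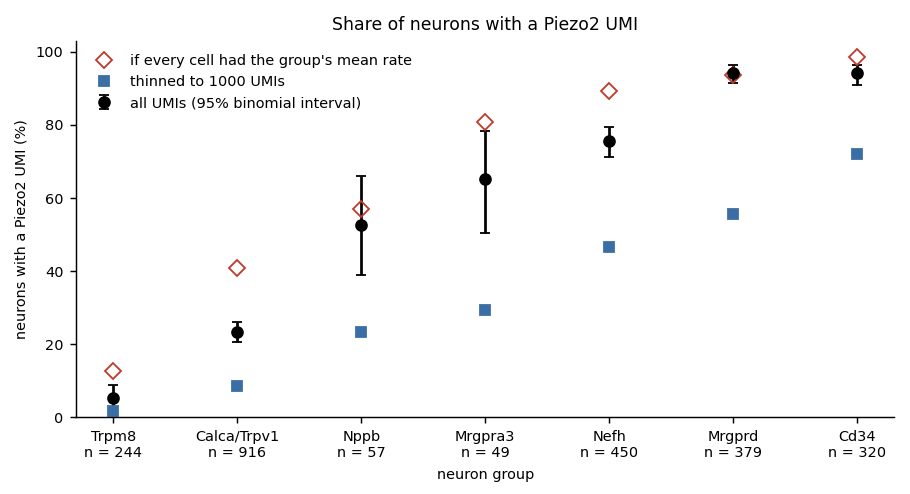
The share of neurons with a Piezo2 UMI (y axis, percent) in the 7 neuron groups (x axis, with the number of neurons). Black points are observed shares with 95% binomial intervals, open diamonds the share if all neurons of a group had its mean rate, and squares the share after thinning to 1000 UMIs. The diamond lies on the observed share in Mrgprd neurons (93.5% and 94.2%) and far above it in Calca/Trpv1 neurons (41.0% and 23.3%).

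The uneven groups were divided by a second transcript, a division chosen after the values were seen. Nefh neurons with at least 5 UMIs of Calca (n = 89) had 614 CPM (564 to 667) of Piezo2, and those with fewer (n = 361) had 797 CPM (762 to 833). Their shares with Piezo2 went the other way, at 85.4% and 73.1%, with medians of 6021 and 3789 UMIs, and thinned to 1000 UMIs the shares were 47.6% and 46.3%. With a UMI of Ntrk2, the receptor of brain-derived neurotrophic factor, Nefh neurons (n = 133) had 833 CPM (784 to 883), and without it (n = 317) 691 CPM (655 to 728), at medians of 5147 and 3613 UMIs. In Calca/Trpv1 neurons with a UMI of the irritant receptor Trpa1 (n = 437) Piezo2 was 57.6 CPM (48.9 to 67.4), and without one (n = 479) it was 206 CPM (187 to 226). The 77 Calca/Trpv1 neurons with at least 5 UMIs of Nefh had 252 CPM (222 to 284), and the remaining 839 had 88.9 CPM (79.7 to 98.8). Depth differed along with these divisions, with medians of 4319 UMIs with and 3091 without Trpa1, and of 11255 UMIs with and 3294 without 5 UMIs of Nefh.

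Among the proposed accessory and channel proteins, Tmem150c had the pattern most like that of Piezo2, with exceptions. It reached 139 CPM (102 to 186) in Mrgpra3 neurons and 102 CPM in both Mrgprd (91.1 to 113) and Cd34 neurons (90.8 to 114). Nefh neurons had 61.8 CPM (53.7 to 70.8), Calca/Trpv1 neurons 31.8 CPM (27.0 to 37.3), Trpm8 neurons 20.3 CPM (14.7 to 27.3) and Nppb neurons 10.6 CPM (2.18 to 30.9). Mrgpra3, Mrgprd and Cd34 neurons did not differ beyond counting error, nor did Trpm8 and Nppb neurons. Nppb neurons thus had Piezo2 above Calca/Trpv1 neurons but Tmem150c below them, with 3 UMIs in 57 cells (log2 ratio -1.59, -3.88 to -0.02). Thinned to 1000 UMIs, a Tmem150c UMI was found in 12.1% of Mrgpra3, 10.1% of Cd34, 6.05% of Nefh, 2.73% of Calca/Trpv1, 2.49% of Trpm8 and 0.80% of Nppb neurons, next to 0.309% of red blood cell-like and 1.76% of pituitary-like barcodes. Tmem150c in Nppb neurons was thus not separated from free RNA. Its level in Trpm8 neurons was not clearly separated either, since pituitary-like barcodes had 14.96 CPM (9.68 to 22.1), an interval that overlaps theirs.

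Tmem63b was highest in the Cd34 and Nefh groups, at 139 CPM (126 to 152) and 99.8 CPM (89.5 to 111). Trpm8 neurons followed with 82.0 CPM (70.3 to 95.2) and Mrgpra3 neurons with 80.4 CPM (52.5 to 118). Mrgprd, Calca/Trpv1 and Nppb neurons had 61.1, 60.8 and 56.3 CPM and did not differ beyond counting error. Mrgprd neurons, rich in Piezo2, were therefore at the low end for Tmem63b, and Trpm8 neurons, the lowest in Piezo2, were above them by 0.42 on the log2 scale (0.12 to 0.72). Tmem120a was lowest in Mrgprd neurons. It lay between 44.8 and 49.5 CPM in Nefh, Nppb, Trpm8 and Mrgpra3 neurons, at 33.6 and 33.5 CPM in Cd34 and Calca/Trpv1 neurons and at 24.1 CPM (19.1 to 30.1) in Mrgprd neurons, below Trpm8 neurons by 0.94 on the log2 scale (0.49 to 1.38).

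Of the 3 stomatins among the members, Stoml1 was the one found throughout the neurons. Mrgprd neurons had 182 CPM (167 to 197), Mrgpra3 neurons 167 CPM (125 to 218) and Cd34 neurons 135 CPM (123 to 149). Nefh, Trpm8, Nppb and Calca/Trpv1 neurons lay between 92.8 and 116 CPM. Thinned to 1000 UMIs, Stoml1 was found in 6.55% to 17.5% of the neurons of a group and in 0.732% of red blood cell-like and 1.66% of pituitary-like barcodes. Stom had another pattern, with 77.5 CPM (48.6 to 117) in Nppb neurons and 19.3 CPM (14.8 to 24.6) in Mrgprd neurons and at most 9.28 CPM in the remaining groups. The 22 Stom UMIs of Nppb neurons came from 17 of 57 cells, with at most 3 in a cell. The list of red blood cell markers took 0.362% of UMIs in Nppb neurons and 0.620% in Calca/Trpv1 neurons, where Stom was 6.37 CPM (4.32 to 9.04). Without Omp-positive barcodes Stom was 72.3 CPM (42.9 to 114) in 52 Nppb neurons. Thinned to 1000 UMIs, Stom was found in 8.53% of Nppb neurons, 0.252% of pituitary-like barcodes and 7.10% of red blood cell-like barcodes, a cell type that makes stomatin.

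**Figure D2:**
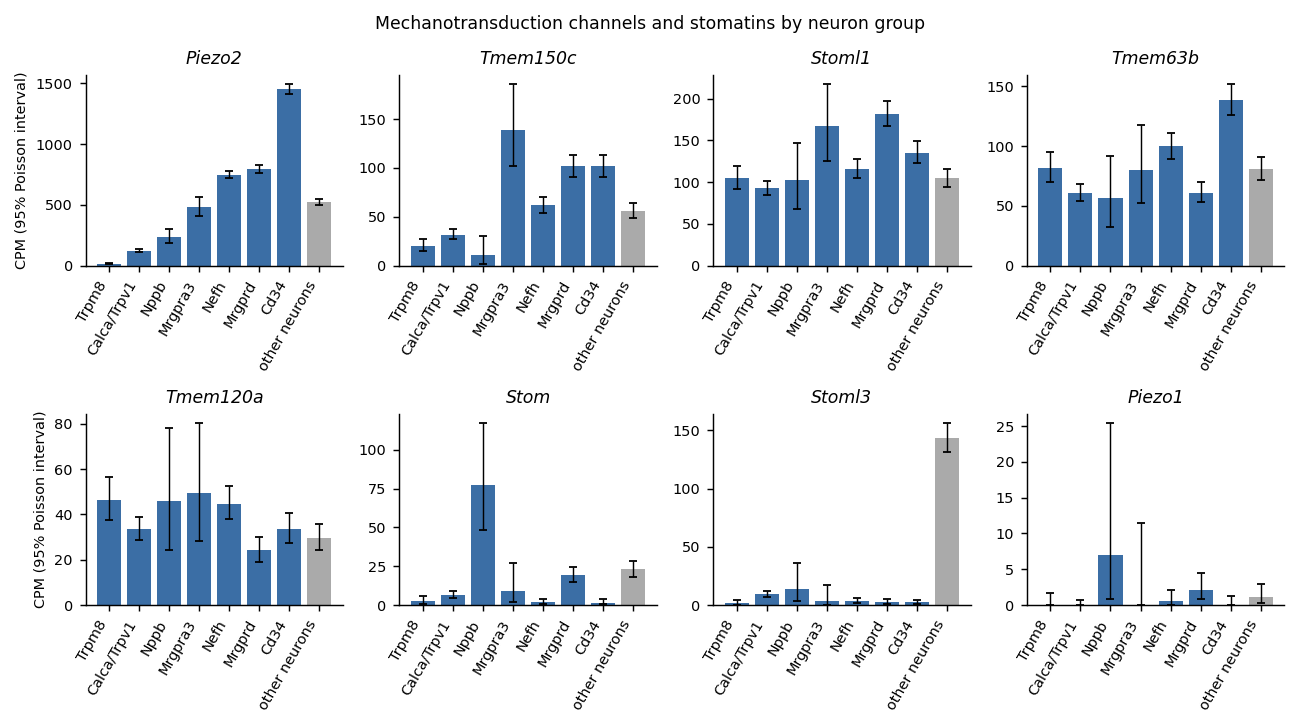
CPM of each member (y axis, from 0, a separate scale for each gene) in the 7 neuron groups in order of their Piezo2 level and, in grey, in other neurons (x axis). Bars are pooled values with 95% Poisson intervals. Piezo2 rises from 17.0 CPM in Trpm8 to 1454 CPM in Cd34 neurons, Stom peaks in Nppb neurons at 77.5 CPM, and Tmem120a lies between 24.1 and 49.5 CPM.

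Counts of members whose CPM was 2-fold or more apart from Calca/Trpv1 neurons are set beside the share of all genes that were as far apart, with at least 100 UMIs in the 2 groups together. Piezo2, Stoml1, Tmem150c, Tmem120a and Tmem63b had enough UMIs in all 6 comparisons, and Piezo1, Stom and Stoml3 in none. In Cd34 neurons 3 of these 5 members were called, Piezo2, Tmem150c and Tmem63b, all higher (15.6% of all genes in either direction). Mrgprd and Mrgpra3 neurons had 2 of 5 each, Piezo2 and Tmem150c, again higher (17% and 17.3% of genes). For Nefh neurons the count was 1 of 5, Piezo2 (14.9% of genes in either direction, 6.66% higher and 8.26% lower). Trpm8 neurons also had 1 of 5, Piezo2, which was lower (16.5%), and Nppb neurons 1 of 5, Tmem150c, likewise lower (14.8%). Tmem150c missed the limit in Nefh neurons at 1.94-fold, a log2 ratio of 0.96. It passed at 1.11 without the deepest 5% of neurons, 1.12 without Omp-positive neurons (chosen after seeing the data), 1.16 as a mean of single-cell CPM and 1.03 with median-of-ratios size factors, which makes the Nefh count 2 of 5. Under the same 4 alternatives Stoml1 in Mrgprd neurons, at 0.97, passed with 1.06, 1.04, 1.08 and 1.05, which makes that count 3 of 5. Piezo2 in Nppb neurons, at 0.94, passed with stricter group limits (1.45), in neurons that met 1 rule (1.21), without the deepest 5% (1.35), without Omp-positive neurons (1.10) and as a mean of single-cell CPM (1.51), which makes the Nppb count 2 of 5 with 1 higher. Of the 17 ratios recalculated, these 3 crossed the limit. A count of 1 of 5 is near these background shares.

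A list of 38 other genes of mechanosensation, among them TMC proteins, two-pore potassium channels, acid-sensing channels, TRP channels and further TMEM63 and stomatin family members, was treated in the same way. Nefh neurons had none of 16 genes with enough UMIs higher and 2 lower, Trpa1 and the stretch-activated potassium channel Kcnk2. Trpa1 was at 5.59 CPM in Nefh and 400 CPM in Calca/Trpv1 neurons, and Kcnk2 at 13.8 and 85.2 CPM. Of all genes, 6.66% were as much higher in Nefh neurons and 8.26% as much lower. In Mrgprd neurons 11 of 20 genes were called (17% of all genes), 6 higher and 5 lower. Of the 6 higher genes 5 had under 100 UMIs in Calca/Trpv1 neurons and passed the limit of 100 UMIs in both groups together with those of Mrgprd neurons, where they are high, so their count is a description. Among these was Tmem63a, a paralogue of Tmem63b, at 44.6 against 3.70 CPM. In Cd34 neurons 7 of 16 were called (15.6% of all genes), of which 1 was higher, and in Trpm8 neurons 7 of 15 (16.5%), again with 1 higher. Mrgpra3 neurons had 6 of 15 (17.3%) with 1 higher, and Nppb neurons 7 of 15 (14.8%) with none higher. The shares of all genes are for either direction and were not divided for these 5 groups. Trpa1, which was at 400 CPM in the shared reference, was lower in all 6. The single higher gene was the acid-sensing channel Asic2 in Cd34 (71.1 against 27.9 CPM) and Mrgpra3 neurons (74.3 CPM), and Asic1 in Trpm8 neurons (99.5 against 42.9 CPM).

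Co-expression with Piezo2 was taken as the ratio of a gene's UMIs per total UMIs in Piezo2-positive over Piezo2-negative neurons. Pooled over all neurons, it was 2.63 (2.29 to 3.02) for Tmem150c, 1.46 (1.34 to 1.59) for Stoml1, 1.41 (1.28 to 1.57) for Tmem63b and 0.95 (0.82 to 1.10) for Tmem120a. Neurons of 1 group share much more than Piezo2, so the ratio was also computed within groups and combined (Mantel-Haenszel), with other neurons as 1 further group. It then fell to 1.58 (1.32 to 1.90) for Tmem150c, 1.31 (1.13 to 1.51) for Tmem63b, 1.23 (1.10 to 1.38) for Stoml1 and 1.03 (0.85 to 1.25) for Tmem120a. The median of 10771 genes was 1.01, and 6.26% of them had a ratio of 1.5 or more. Tmem150c alone did so of 6 members with enough UMIs, of which Stoml3 had enough only through Omp-positive barcodes.

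The remaining excess was beyond counting error in other neurons but not in the 7 groups combined. Within the 7 groups and without Omp-positive neurons the ratio was 1.18 (0.91 to 1.54) for Tmem150c, 1.08 (0.92 to 1.26) for Stoml1 and 1.06 (0.87 to 1.29) for Tmem63b, each within counting error of 1. In other neurons without Omp it was 2.83 (2.08 to 3.86), 1.53 (1.24 to 1.89) and 1.93 (1.51 to 2.46). Tmem150c was 84.8 CPM in 565 Piezo2-positive and 33.4 CPM in 875 Piezo2-negative other neurons, Omp-positive barcodes included. With those barcodes also included, Stoml1 and Tmem63b were higher in Piezo2-positive Cd34 neurons, by log2 ratios of 2.82 (0.34 to 8.13) and 2.86 (0.37 to 8.16). Stoml1 was lower in Piezo2-positive Mrgprd neurons, at -0.76 (-1.39 to -0.06). Only 19 Cd34 and 22 Mrgprd neurons were Piezo2-negative. Other neurons are shallow and meet no rule, so they can hold cells of several of the 7 groups, and a difference between such cells cannot be told apart from co-expression within a type. Stom and Stoml3 had ratios of 0.45 (0.31 to 0.65) and 0.21 (0.16 to 0.27) within groups. An inverse ratio of 1.5 or more, as Stom had, was found for 5% of genes, and Stoml3 is not counted because it had enough UMIs only through Omp-positive barcodes. Piezo1, with 15 UMIs, had 0.54 (0.19 to 1.54). Without Omp-positive neurons the ratios of Stom and Stoml3 were 0.87 (0.53 to 1.44) and 0.97 (0.48 to 1.96), so the low values rested on Omp-positive barcodes.

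**Figure D3:**
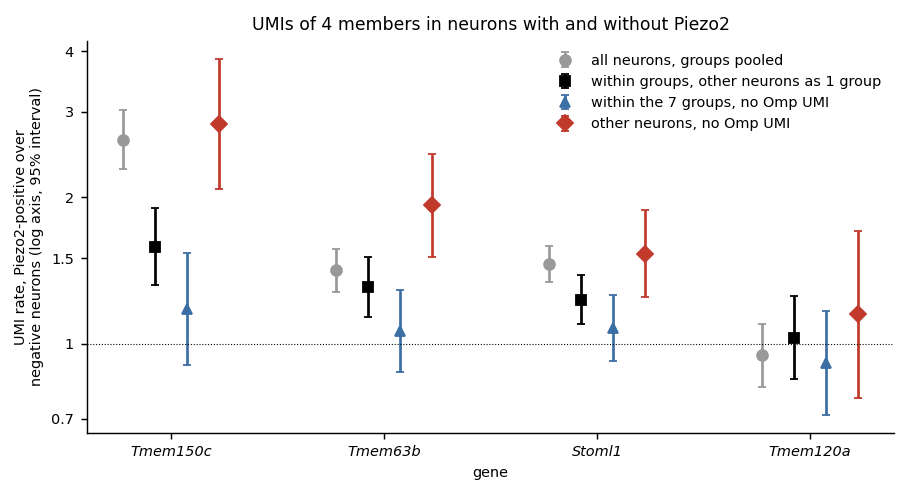
The ratio of UMI rates in Piezo2-positive over Piezo2-negative neurons (y axis, log scale, 95% intervals) for 4 members (x axis), pooled over all neurons (grey), within groups (black), within the 7 groups without Omp (blue) and in other neurons without Omp (red). For Tmem150c the ratio is 2.63 pooled, 1.18 within the 7 groups and 2.83 in other neurons.

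Most Stoml3 UMIs lay in Omp-positive barcodes. Omp, the olfactory marker protein, had a UMI in 445 barcodes, of which 219 met the neuron rule, and the 445 held 2755 of the 2867 Stoml3 UMIs (96.1%). Counted by barcodes the part was smaller, since 212 of 309 barcodes with Stoml3 (68.6%) had Omp. Among neurons with Stoml3 it was 57 of 98 (58.2%). The Stoml3 level of the 445 Omp-positive barcodes was 811 CPM (781 to 842), against 2.31 CPM (1.67 to 3.09) in the 3636 neurons with no Omp UMI, a 352-fold difference. The share with Stoml3 was 1.48% (1.20 to 1.80) with no Omp UMI, 6.39% (3.54 to 10.5) with 1, 46.2% (26.6 to 66.6) with 2 and 98.7% (95.5 to 99.8) in the 157 barcodes with 6 or more, where the median depth was 1351 UMIs and the level 8688 CPM (8350 to 9035). A single Omp UMI was therefore not the same as a Stoml3 cell. The 219 barcodes with 1 Omp UMI had a median depth of 4606 UMIs and a Stoml3 level of 11.9 CPM (7.79 to 17.5).

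Stom followed Stoml3 in these barcodes. Its share was 4.59% (4.10 to 5.13) with no Omp UMI, 9.13% (5.67 to 13.8) with 1 and 86.6% (80.3 to 91.5) with 6 or more. Of Omp-positive barcodes with Stoml3, 76.9% had Stom, and of those without Stoml3 9.01% did. In all, Omp-positive barcodes held 414 of 760 Stom UMIs (54.5%), a smaller part than of Stoml3. Other olfactory genes rose with Omp, and Gng13, the G protein gamma subunit of olfactory cilia, was found in 94.9% of the barcodes with 6 or more. Prph was found in 22.3% of these and in 76.3% of barcodes with 1 Omp UMI. Stoml1 and Piezo2 did not follow. Stoml1 was 104 CPM (70.5 to 149) at 6 or more Omp UMIs and 101 CPM (97.2 to 105) at none. Between these ends it reached 177 CPM (140 to 221) at 2 and 221 CPM (163 to 292) at 3 Omp UMIs. At 1, 4 and 5 Omp UMIs it was 107, 122 and 92.8 CPM. In barcodes with 2 or more Omp UMIs, Stoml1 was above neurons without Omp by 0.34 on the log2 scale (0.12 to 0.56). Piezo2 was found in 5.10% (2.23 to 9.79) of barcodes with 6 or more.

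Compared with neurons without Omp, 2.06% of 10996 genes were 2-fold or more higher in Omp-positive barcodes. Stom, with 140 UMIs in those neurons, was among them, and Stoml3 is not counted because it had enough UMIs only through the Omp-positive barcodes. The Stom level was 122 CPM (110 to 134) against 7.34 CPM (6.17 to 8.66). Of the other mechanosensory genes, none of 25 passed the limit. Among neurons with no Omp UMI, Stoml3 was left with 44 UMIs in 41 of 3636 cells. Thinned to 1000 UMIs its share there was 0.281%, next to 1.58% of red blood cell-like and 0.252% of pituitary-like barcodes, and was read as background. By group, Stoml3 ranged from 1.41 CPM in Trpm8 to 14.1 CPM (3.84 to 36.1) in Nppb neurons, with 4 UMIs in 2 cells in the latter. Other neurons had 143 CPM (131 to 156), from 48 of 1440 cells, and 64 of these 1440 were Omp-positive. Nefh neurons, which include the large mechanoreceptors, had 12 Stoml3 UMIs in 5 of 450 cells (3.53 CPM, 1.83 to 6.17), next to 17.6 CPM (11.9 to 24.9) in red blood cell-like and 3.59 CPM (1.32 to 7.82) in pituitary-like barcodes, so Stoml3 was not detectable above free RNA there at this depth.

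**Figure D4:**
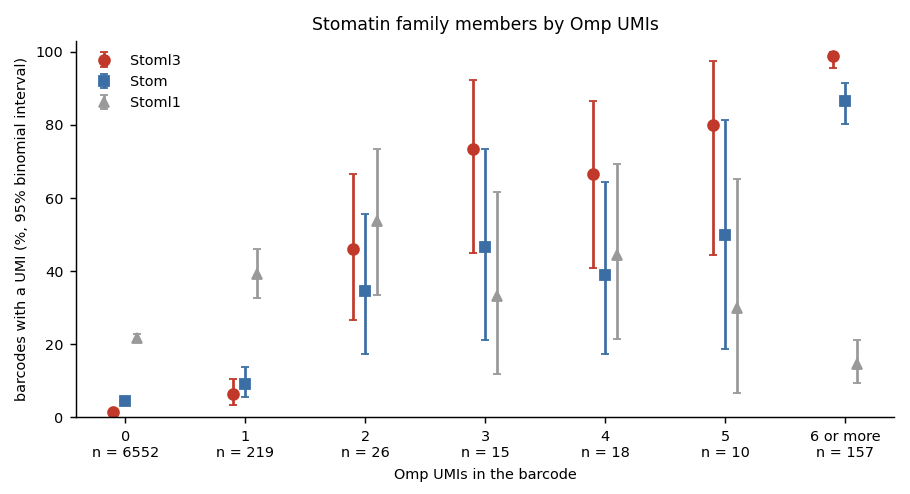
The share of barcodes with a UMI of Stoml3, Stom or Stoml1 (y axis, percent, 95% binomial intervals) by the number of Omp UMIs in the barcode (x axis, with the number of barcodes). Stoml3 goes from 1.48% at 0 to 98.7% at 6 or more and Stom from 4.59% to 86.6%, and Stoml1 shows no such course.

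Piezo1 was rare in neurons and highest in endothelial-like barcodes. The table held 44 Piezo1 UMIs, of which 15 were in the 3855 neurons (0.717 CPM, 0.401 to 1.18). No UMI was found in Trpm8, Mrgpra3, Cd34 or Calca/Trpv1 neurons, and 0 of 916 Calca/Trpv1 cells, by a limit of 3 counts, allows a share of cells with a UMI of up to 0.328%, which does not limit the share of cells that express the gene. Mrgprd neurons held 7 UMIs in 7 cells (2.14 CPM, 0.860 to 4.41) and Nppb neurons 2 UMIs in 2 cells (7.04 CPM, 0.853 to 25.4). Thinned to 1000 UMIs their shares were 0.326% and 0.308%. Endothelial-like barcodes (n = 108, at least 3 of 6 endothelial markers) had 10 UMIs, which is 48.5 CPM (23.2 to 89.1), in 7.41% (3.25 to 14.1) of barcodes. Their median depth was 1506 UMIs, below that of neurons. The ratio to neurons was 6.08 on the log2 scale (4.76 to 7.33). Red blood cell-like barcodes had 3.97 CPM (1.60 to 8.17), and thinned to 1000 UMIs Piezo1 was found in 0.321% of them, 0.254% of pituitary-like barcodes and 0.0988% of all neurons.

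Outside the neurons the members divided by cell class. Stom was 79.4 CPM (66.7 to 93.6) in 1168 red blood cell-like barcodes and 63.0 CPM (33.6 to 108) in endothelial-like barcodes, but 3.997 CPM (0.824 to 11.7) in glia-like barcodes with 500 to 7500 genes and 2.99 CPM (0.972 to 6.98) in pituitary-like ones. Stoml1 was 6.80 CPM (3.51 to 11.9) in red blood cell-like and 18.6 CPM (12.6 to 26.3) in pituitary-like barcodes, and Tmem150c 3.40 and 14.96 CPM. Tmem63b was 94.6 CPM (73.9 to 119) in glia-like barcodes of 500 to 7500 genes, and neurons without Omp, at 85.00 CPM (80.9 to 89.2), lay within that interval. Piezo2 was 107 CPM (66.8 to 161) in endothelial-like barcodes. The glia-like class as a whole had 581 CPM of Piezo2, and 232 CPM (199 to 269) without barcodes outside 500 to 7500 genes. The latter value rested on few barcodes, since 27 of 260 had Piezo2, 1 held 37 of the 174 UMIs, the mean of single-cell CPM was 71.5 and the share thinned to 1000 UMIs was 5.91%. The glia-like class as a whole included 13 barcodes with more than 7500 genes, and 35 of the 40 such barcodes in the table had at least 3 neuronal markers. The part of doublets in these values was not tested.

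**Figure D5:**
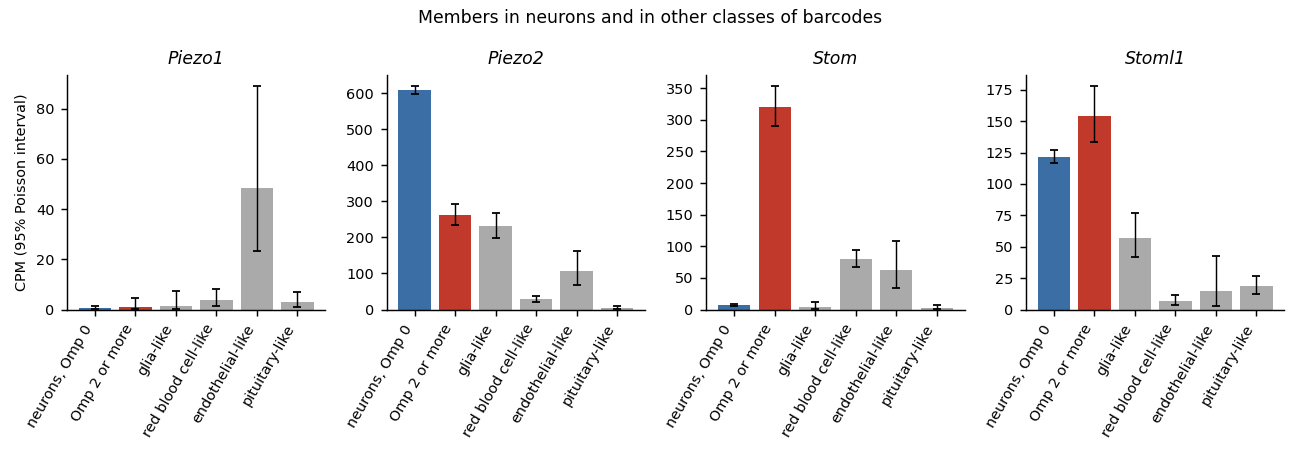
CPM of Piezo1, Piezo2, Stom and Stoml1 (y axis, from 0, a separate scale for each gene, 95% Poisson intervals) in neurons without Omp, barcodes with 2 or more Omp UMIs, and the glia-like (500 to 7500 genes), red blood cell-like, endothelial-like and pituitary-like classes (x axis). Piezo1 is highest in endothelial-like barcodes at 48.5 CPM, Piezo2 in neurons, and Stom in barcodes with Omp.

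The genes whose CPM across the 7 neuron groups was most like a member's (Pearson's r of log2 CPM with a pseudocount of 10, 7 points, 9300 genes with at least 200 UMIs) are given as a description, since with 7 points many genes reach a high r. For Piezo2 they were Atmin (r = 0.99), Asap1 (0.97) and Lcmt1 (0.95). Asap1, which activates the GTPase of Arf proteins, went from 63.2 CPM in Trpm8 to 583 CPM in Cd34 neurons. Tmem150c was most like the disintegrin gene Adam11 (0.99), the actin gene Actg1 (0.97) and Dusp6 (0.96). Tmem63b was most like Stac2 (0.996), which regulates voltage-gated calcium channels, the semaphorin Sema3e (0.99) and Smim15 (0.98). Stac2 was at 52.7 CPM in Cd34 and 21.5 CPM in Nefh neurons. For Stoml1 they were Actr1a, Arsb and Plcl1, for Tmem120a mt-Nd6, Kcnab2 and Pdpr, for Stom Cacul1, Zmiz2 and Usp20 and for Stoml3 Gem, Omp and Erf, with r between 0.96 and 0.99. Stoml3 had only 1 to 45 UMIs in each of the 7 groups, and of these 19 in Piezo2-positive and 15 in Piezo2-negative neurons were in cells with no Omp UMI, so nothing is read from the genes most like it. Between members, r with Piezo2 was 0.71 for Tmem150c, 0.61 for Stoml1, 0.41 for Tmem63b and -0.37 for Tmem120a. Tmem150c had a higher r with Stoml1 (0.84) than with Piezo2.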

How the data were processed

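Per the labels and the study's methods, Dropseq libraries of 9 runs were sequenced and the table used here, deposited by the authors, holds UMI counts per gene and barcode with no normalization. The submitters' processing notes name bcl2fastq 2.17, STAR 2.5.3a, Seurat 1.4.0.16 and the mm10 build. Every barcode had at least 1000 UMIs, with a median of 2031 and a maximum of 190815. Of all barcodes, 6 sequences were listed in more than 1 column and 528 ended in N, and all were kept. No doublet caller was used, and the deepest 5% of neurons were left out as an alternative. Members, lists and limits were chosen with earlier results of these data known. CPM, ratios of 2 Poisson counts with exact conditional intervals, and Mantel-Haenszel ratios were computed in Python 3.11.15 with scipy 1.17.1 and tested on simulated data. Thinned shares are expected values over draws without replacement. Classes other than neurons needed 3 glial markers, 5% haemoglobin UMIs, 3 endothelial markers, or Epcam with 2% pituitary hormone UMIs, in this order. Genes named beyond the members were the 3 most like each member and those called in a fixed list of 38. Counting is of 3′ ends, so levels were compared between cells and not between genes. Alternatives changed the neuron and group limits, scaling, depth, strata and Omp limits. The values of 1 gene of that list are not reported here.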

Additional observations from a re-analysis of the deposited data

How the results depend on the processing

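For 17 ratios of a member between a neuron group and Calca/Trpv1 neurons, 187 recalculations under 11 alternatives each kept the sign, and 169 stayed inside the counting interval. Tmem120a in Trpm8 neurons was left at 0.01 (-0.81 to 0.73) among neurons that met 1 rule, an alternative that changes no cell of the Nefh comparisons. The Piezo2 log2 ratios rose with stricter group limits (Cd34 3.83, Mrgprd 2.91, Nefh 2.73), without the deepest 5% (3.89, 2.96, 3.00) and as means of single-cell CPM (3.88, 3.07, 3.01), and the Trpm8 ratio ran from -3.87 to -1.65. The Tmem150c co-expression ratio was 2.63 not stratified and 1.18 within the 7 groups without Omp (chosen after seeing the data), where Tmem63b was 1.06 and Stom turned to 1.02. Stoml3 was higher in Omp-positive barcodes by 8.46 (log2), by 9.93 with 2 or more Omp UMIs, 9.13 with 2 other olfactory markers and 9.27 outside the neuron rule, and Stom by 4.05, 5.45, 4.69 and 4.88. A limit of 10 UMIs in place of 100 moved the genes 2-fold apart by over 1.5 times in every comparison with Calca/Trpv1 neurons, in Nefh neurons from 1291 to 3066, and in Omp-positive barcodes from 227 to 1078. The 3 genes most like Stom were all replaced with a pseudocount of 1 or a limit of 50 UMIs, and 1 of 3 remained for Tmem63b with the pseudocount and 1 of 3 for Stoml3 with the limit. No paired analysis was possible because the columns carry no run. Counts limit Piezo1, with 44 UMIs in all, and the Mrgpra3 and Nppb groups, with 49 and 57 cells.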
